A study of Mus musculus with 18 samples.

Results

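Chloride secretion moves salt and water into the lumen of the colon, and 9 genes of this machinery were followed in mouse colon organoids, that is, cultures of intestinal epithelium. The genes were Cftr, Slc12a2, Ano1, Clcn2, Best2, Clic1, Clic4, Clic5 and Clic6, each matched by its symbol, 9 of the 56748 genes in the deposited table and of its 21970 protein-coding genes. FPKM is a fragment count divided by gene length and by library size. All 9 passed the filter on low values, which asks for an FPKM of 1 or more in 3 or more libraries, and Best2 reached it in exactly 3, all of them differentiation libraries (2 distal and 1 mid). RNA was sequenced from organoids of the proximal, mid and distal colon, each in 2 media with 3 libraries, so 6 groups and 18 libraries. The control medium (ENR + Wnt3a CM in the labels) keeps the cells proliferating, the other medium is labelled as a differentiation medium, and the change came 3 days after passaging. No genotype, strain or age is given in the sources used here, no group carries a labelled genetic change, and nothing says whether replicate numbers mark animals or parallel cultures. The p-values thus cover the spread between these libraries, which may be technical.

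In a chloride-secreting epithelial cell, the Na-K-2Cl cotransporter encoded by Slc12a2 (NKCC1) loads chloride across the basolateral membrane, and potassium channels and the sodium pump keep the gradients that drive it out. Chloride leaves through the apical channel CFTR, opened by cyclic AMP and cyclic GMP signalling, and through calcium-activated channels such as ANO1 (TMEM16A). Bestrophin 2 (Best2), found in goblet cells, is a calcium-activated channel that also passes bicarbonate. ClC-2 (Clcn2) is a chloride channel opened by hyperpolarization that lies in the basolateral membrane of surface colonocytes, where it is tied to salt absorption. The CLIC proteins occur in soluble and membrane forms. CLIC1 and CLIC4 act in the cytoskeleton and in trafficking, CLIC5 binds ezrin in actin-based projections such as microvilli, and CLIC6 is less well characterised.

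The 250 bases before the RefSeq start (build GRCm38.p6) were found for 6 of the 9 genes, all but Slc12a2, Best2 and Clic6. Printed here are 4 of them, Cftr and Clic4 because both fell in differentiation medium in every region, and Clcn2 and Clic5 because both rose in every region. They lie at chr6:18170437-18170686 on the plus strand (Cftr), chr4:135272761-135273010 on the minus strand (Clic4), chr16:20716637-20716886 on the minus strand (Clcn2) and chr17:44188322-44188571 on the plus strand (Clic5). Each reads 5′ to 3′ towards its gene, and capitals mark GGGCGG (the GC box) and AGGTCA (a nuclear receptor half-site) on either strand, where adjoining GC boxes overlap.
Cftr: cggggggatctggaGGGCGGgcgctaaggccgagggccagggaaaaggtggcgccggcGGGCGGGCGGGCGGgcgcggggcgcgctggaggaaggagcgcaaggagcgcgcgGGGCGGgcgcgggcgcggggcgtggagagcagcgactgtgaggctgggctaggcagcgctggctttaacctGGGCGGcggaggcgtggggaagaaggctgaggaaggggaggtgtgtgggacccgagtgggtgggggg
Clic4: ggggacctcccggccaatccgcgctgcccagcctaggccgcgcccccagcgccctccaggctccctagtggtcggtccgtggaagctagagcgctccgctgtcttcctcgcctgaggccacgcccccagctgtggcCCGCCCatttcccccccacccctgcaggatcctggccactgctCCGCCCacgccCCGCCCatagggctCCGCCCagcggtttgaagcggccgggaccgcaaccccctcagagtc
Clcn2: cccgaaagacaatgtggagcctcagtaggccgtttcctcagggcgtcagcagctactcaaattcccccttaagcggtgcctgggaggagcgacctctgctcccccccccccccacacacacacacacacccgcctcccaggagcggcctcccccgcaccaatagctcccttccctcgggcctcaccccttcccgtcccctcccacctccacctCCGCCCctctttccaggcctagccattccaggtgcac
Clic5: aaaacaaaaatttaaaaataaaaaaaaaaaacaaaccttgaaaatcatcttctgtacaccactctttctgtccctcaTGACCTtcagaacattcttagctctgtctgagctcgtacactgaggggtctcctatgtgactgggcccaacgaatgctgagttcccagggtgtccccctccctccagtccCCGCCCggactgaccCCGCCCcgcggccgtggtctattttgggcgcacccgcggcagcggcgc
The GC content was 76.4% for Cftr, 73.2% for Clic4, 66.0% for Clcn2 and 52.8% for Clic5, against a median of 52.4% over 32851 promoters. GGGCGG stood in 6 of the 6 matched promoters and in 32.74% of all, with 6 matches for Cftr, 4 for Clic4, 1 for Clcn2 and 2 for Clic5. AGGTCA stood in 2 of 6, Clic1 and Clic5, and in 14.02% of all. In total 14 motifs were tried on both strands, and the 2 in capitals were chosen after the matches were seen. Of the other 12, CACCC stood in 5 of 6 (52.01% of all), TGACG in 1, Clcn2 (17.77%), and GTTAAT in 1, Clic1 (6.43%). The remaining 9 had no match in the 6: ATCAAAG (3.21% of all), CAATAAA (4.2%), CAAAGTCCA (0.38%), CAAAGT, which lies within it (12.55%), TATAAA (12.37%), TTTATGG (2.43%), TGACGTCA, which holds TGACG (1.55%), CACGTG (6.02%) and the NRF1 motif (0.78%). A match is a run of letters and not a measured binding site.

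The libraries held 12827751 to 19938198 reads each, recovered from the FPKM. Markers of epithelium were high in every group, with summed FPKM of 5 genes from 2087 to 7026. The ionocyte markers Foxi1, Foxi2 and Atp6v1g3 were at 0 in all 6 groups, and 4 of 4 ionocyte markers stayed under an FPKM of 1 throughout. Lists for interstitial cells of Cajal, fibroblasts, smooth muscle, endothelium, immune cells and neurons summed to at most 1.36 FPKM in any library, and the tuft cell list to at most 2.41. On the first principal component, which held 63.5% of the variance, proximal differentiation replicate 1 lay at 5.8. The other 2 of its group lay at 44.1 and 37.9. For the chloride secretion genes, most called medium and regional differences that use replicate 1 are therefore given with and without it. The values and counts of the other pathway genes and of the marker lists are given only with it. Mid differentiation libraries lay at 69.5, 60.6 and 71.3 on this component, and distal ones at 81.3, 68.9 and, for replicate 3, 48.1. Every proximal differentiation library was thus below all of these, with or without replicate 1. Proximal control libraries, at -55.6, -62.1 and -62.6, were also below the other control libraries. The part of this gap in the regional differences, and in those of the medium response, was not tested. The total behind the FPKM was larger than the summed reads in control libraries (ratio of summed reads 0.831 to 0.873) and mostly smaller in differentiation libraries (0.959 to 1.32). The sources used here do not say how the libraries were scaled. Scaled to the summed reads instead, the median gene moved by -0.26, -0.34 and -0.35 (log2) between media in proximal, mid and distal organoids. The split of genes called higher and lower then went from 3565 and 3373 to 2371 and 5260 in proximal, from 4065 and 4122 to 2434 and 6098 in mid, and from 4074 and 4036 to 2360 and 6197 in distal organoids.

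**Figure D1:**
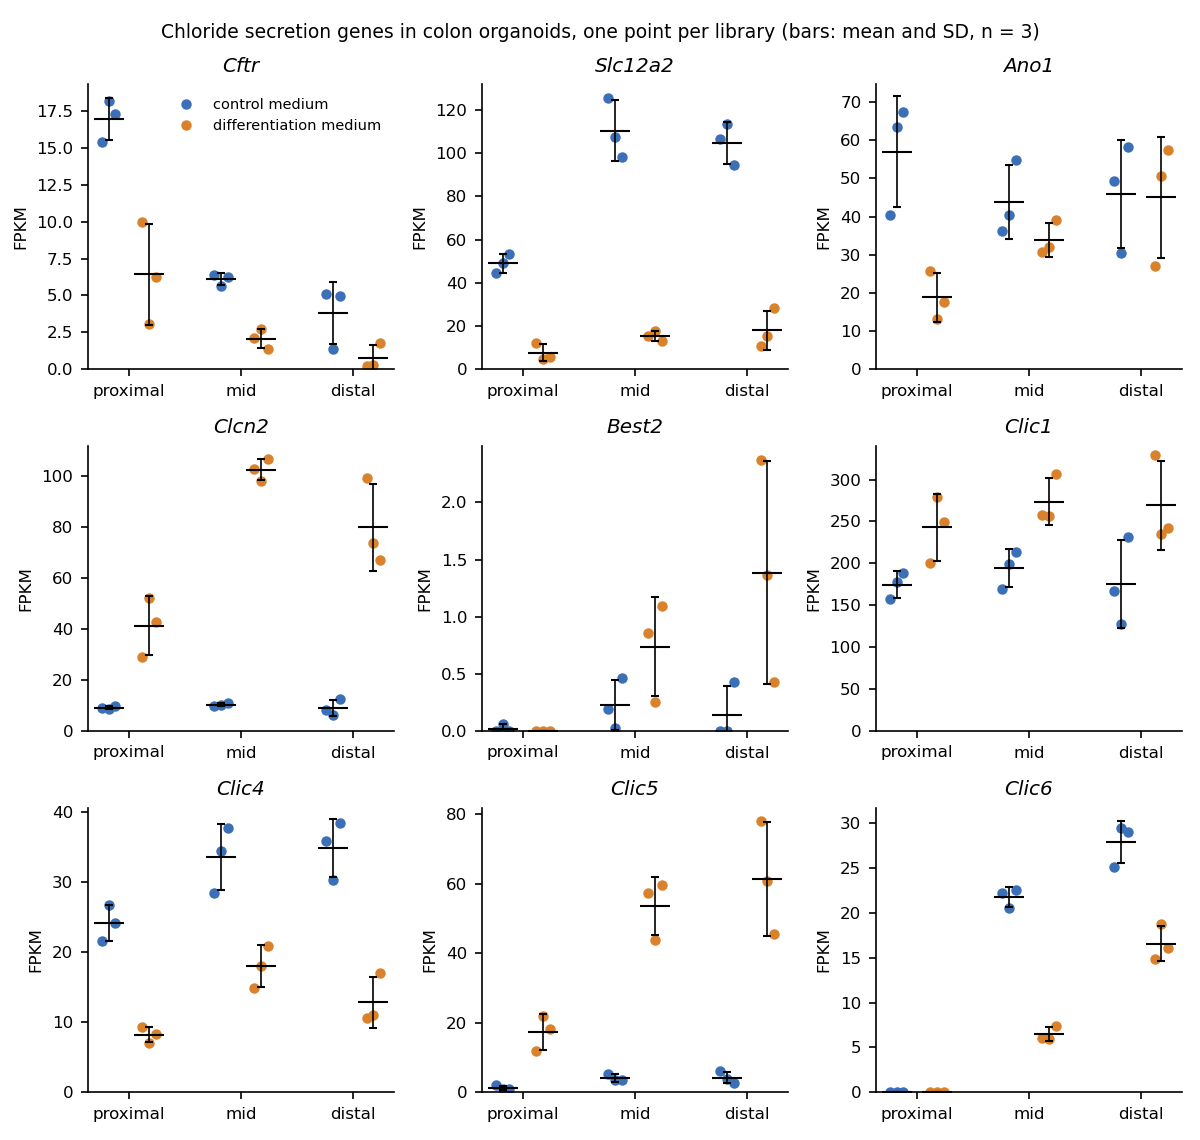
FPKM of each of the 9 genes (vertical axis, a separate linear scale for each gene) by colon region, with 1 point per library, blue for control and orange for differentiation medium, and bars for the mean and SD of 3 libraries. Clcn2 and Clic5 in differentiation medium lie above control in every region, Slc12a2 and Clic4 lie below, and Clic6 lies near 0 in proximal organoids.

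Across the 9 genes, the order of FPKM (a level per length) differed between media. Clic1 was the highest in every group, at 174.7 to 274 FPKM. In control medium the next by group mean were Ano1 (57.1) and Slc12a2 (49.0) in proximal organoids, Slc12a2 (110.3) and Ano1 (43.8) in mid organoids, and Slc12a2 (105) and Ano1 (46.0) in distal organoids. The library ranges of Ano1 and Slc12a2 overlapped in proximal control organoids, so that pair has no clear order there. In differentiation medium Clcn2 took the second place in all 3 regions, at 41.2, 102.5 and 79.9 FPKM. Best2 had the lowest mean in 5 of 6 groups and Cftr (0.777) in distal differentiation organoids. At that end the order is not clear in proximal organoids, where Best2 and Clic6 overlapped, or in distal differentiation organoids, where Cftr and Best2 overlapped.

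Between media, limma on log2(FPKM + 1), with Benjamini-Hochberg adjustment over 12896 genes and a threshold of 0.05, called 6 of 9 genes in proximal organoids, 2 of them higher and 4 lower in differentiation medium. Of all tested genes 53.8% were called there, 27.6% higher and 26.2% lower. In mid organoids 7 were called, 3 higher and 4 lower, against 63.5% of all genes (31.5% and 32%). In distal organoids 8 were called, 4 higher and 4 lower, against 62.9% (31.6% and 31.3%). Best2 is among them, which entered the test only through libraries of the medium in which it is higher. Most genes changed, so a call here does not set the 9 apart. The libraries of the 2 media did not overlap for 8 of 9 genes in proximal, 7 in mid and 6 in distal organoids, against 60.2%, 73.3% and 63.4% of all genes. The proximal count includes Clic6, which had only 11 reads over the control group and 1 over the differentiation group. Clcn2 and Clic5 rose in all 3 regions, which 20.1% of all genes did. Cftr, Slc12a2 and Clic4 fell in all 3, which 19.5% of all genes did.

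**Figure D2:**
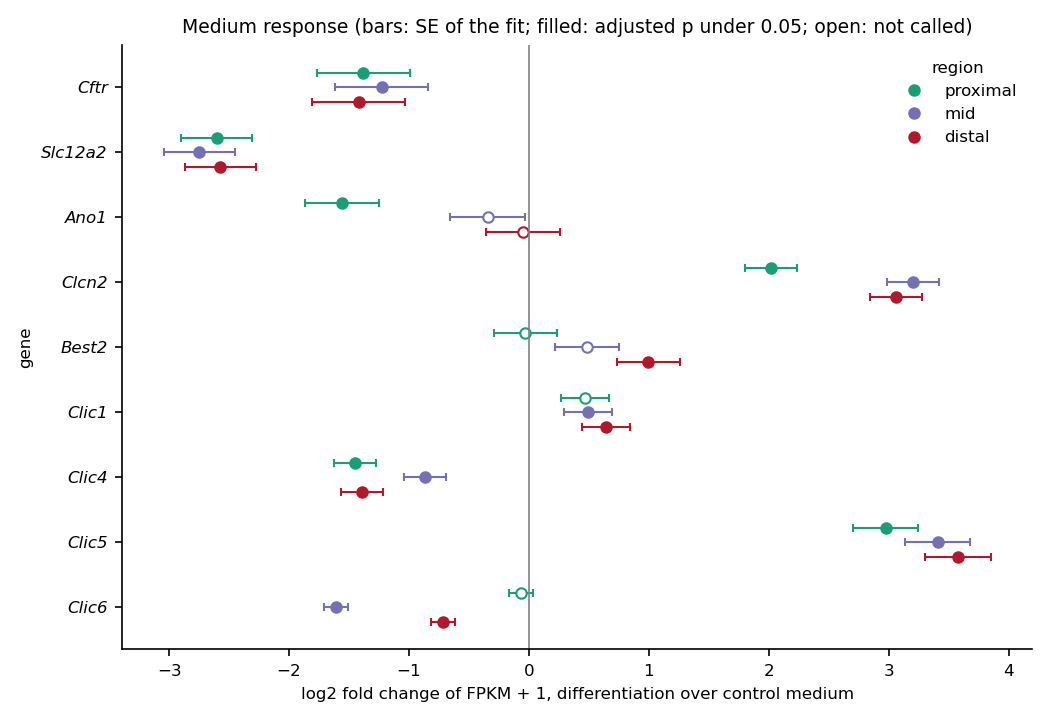
Log2 fold change of FPKM + 1 in differentiation over control medium (horizontal axis) for each gene (vertical axis) and region (colour), with bars for the SE of the fit, filled points for an adjusted p under 0.05 and open points for none. Slc12a2 lies between -2.75 and -2.57 and Clic5 between 2.97 and 3.58, while Ano1 goes from -1.56 in proximal to -0.05 in distal organoids.

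Slc12a2 (ENSMUSG00000024597, mm39 chromosome 18, 58011750 to 58079893, plus strand), the loading step, fell in each region. Control libraries stood at 44.6, 49.2 and 53.2 FPKM in proximal, 125.5, 107 and 98.0 in mid organoids, and 106, 113 and 94.2 in distal organoids. In differentiation medium they stood at 12.4, 5.03 and 5.87, at 15.6, 17.9 and 13.2 and at 10.7, 15.2 and 28.3. Every differentiation library was below every control library of its region. The means were 6.31-fold, 7.08-fold and 5.80-fold lower, and the log2 fold changes were -2.60 (SE 0.295, adjusted p = 6.21e-06), -2.75 (1.89e-06) and -2.57 (3.83e-06) in limma. Without proximal differentiation replicate 1 the proximal value was -2.95. In these bulk libraries, fewer cells of a type and less RNA per cell cannot be told apart, here and in every result that follows.

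Slc12a2 was also lower in proximal organoids than in the other 2 regions, in both media. In control medium it was 2.25-fold higher in mid than in proximal organoids (log2 1.15, SE 0.295, adjusted p = 0.0171 in limma) and 2.14-fold higher in distal (log2 1.08, adjusted p = 0.0276), and the library ranges did not overlap. The distal call was lost without proximal control replicate 1, 2 or 3 or distal control replicate 1 or 2 (adjusted p = 0.0647 to 0.0933), and with no filter (0.0569), summed-read scaling (0.0562) or voom on the recovered reads (0.0555). The mid call was lost without proximal control replicate 2 or mid control replicate 1 or 2 (adjusted p = 0.0531 to 0.0740). In differentiation medium Slc12a2 was higher by 1.11 in distal (adjusted p = 0.01004) and by 1.003 in mid organoids (0.0179) than in proximal, on the log2 scale, and the distal and proximal ranges overlapped. The 2 differences were 1.46 and 1.36 without proximal differentiation replicate 1. Without proximal differentiation replicate 2 the first had an adjusted p of 0.0519 and the second of 0.0851. When only the compared groups were fitted they had 0.131 and 0.0580. The second was also lost without proximal differentiation replicate 3 (0.0717), without mid differentiation replicate 1 (0.05004) or 2 (0.0665), and with summed-read scaling (0.0736).

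Cftr (ENSMUSG00000041301, mm39 chromosome 6, 18170686 to 18322767, plus strand), the main apical exit channel, was highest in proximal control organoids and lowest in distal differentiation organoids. Its control libraries stood at 15.4, 18.1 and 17.3 FPKM in proximal, 6.38, 5.63 and 6.27 in mid organoids, and 5.09, 1.38 and 4.93 in distal organoids, where replicate 2 was low. In differentiation medium the values were 9.96, 3.09 and 6.23 in proximal, 2.12, 2.71 and 1.41 in mid organoids, and 0.239, 0.304 and 1.79 in distal organoids. The media did not overlap in proximal and mid organoids, whereas in distal organoids differentiation replicate 3 lay above control replicate 2. Cftr fell in each region, with log2 fold changes of -1.38 (SE 0.387, adjusted p = 0.00736), -1.23 (0.0119) and -1.42 (0.00487) in limma, or 2.64-fold, 2.93-fold and 4.89-fold at the means. Distal differentiation replicate 3 carries that group's mean, and without it the distal fall was 14.03-fold. The mid call had an adjusted p of 0.0505 without mid differentiation replicate 3, and the proximal fall was -1.72 (adjusted p = 0.00209) without proximal differentiation replicate 1.

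Across regions Cftr ran opposite to Slc12a2. Distal organoids had 4.45-fold less Cftr than proximal ones in control medium (log2 -2.02, SE 0.387, adjusted p = 0.00259 in limma) and 8.27-fold less in differentiation medium (log2 -2.06, adjusted p = 0.000886), with no overlap in either medium. The second was 23.7-fold without distal differentiation replicate 3, and its log2 value was -1.72 (adjusted p = 0.00533) without proximal differentiation replicate 1. Mid organoids had 2.78-fold less in control (log2 -1.34, adjusted p = 0.0326) and 3.10-fold less in differentiation medium (log2 -1.18, adjusted p = 0.0315). The mid calls were less stable. The control one was lost without proximal control replicate 2 or 3 or without mid control replicate 1, 2 or 3 (adjusted p = 0.0690 to 0.106), with a pseudocount of 0.1 (0.125) and with no filter (0.0686). The differentiation one was lost without proximal differentiation replicate 1 (log2 -0.85, adjusted p = 0.134) or 3 (0.0793), without mid differentiation replicate 1 (0.0698) or 3 (0.111), with a pseudocount of 0.1 (0.0738), with no filter (0.0714) and when only the compared groups were fitted (0.0601). Distal against mid organoids, Cftr was not called in control (log2 -0.68, adjusted p = 0.997) or differentiation medium (log2 -0.88, adjusted p = 0.587). The ranges overlapped in differentiation medium, while in control medium every distal library lay below every mid library.

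Ano1 (ENSMUSG00000031075, mm39 chromosome 7, 144142286 to 144305711, minus strand), the calcium-activated channel, was called lower in differentiation medium in proximal organoids and was not called in the other 2 regions. Proximal libraries stood at 40.3, 63.5 and 67.3 FPKM in control and 25.9, 13.1 and 17.6 in differentiation medium, with no overlap. The fall was 3.02-fold (log2 -1.56, SE 0.310, adjusted p = 0.000683 in limma), with a log2 value of -1.80 without proximal differentiation replicate 1. Mid libraries stood at 36.2, 40.4 and 54.9 in control and 30.7, 32.1 and 39.0 in differentiation medium, and distal libraries at 49.4, 30.4 and 58.2 and at 27.1, 50.5 and 57.5. The media overlapped in both of these regions, with log2 fold changes of -0.35 (adjusted p = 0.346) and -0.05 (adjusted p = 0.902). In control medium the regions overlapped and none was called apart. In differentiation medium Ano1 was 2.38-fold higher in distal (log2 1.19, adjusted p = 0.00861) and 1.80-fold higher in mid (log2 0.86, adjusted p = 0.0490) than in proximal organoids, or 1.44 and 1.0995 on the log2 scale without proximal differentiation replicate 1. The distal call had an adjusted p of 0.0622 when only the compared groups were fitted. The mid call was lost in 12 of 18 fits that left out 1 library (adjusted p up to 0.184, without proximal differentiation replicate 2) and stayed in the 6 without proximal control replicate 1, proximal differentiation replicate 1, distal control replicate 2 or 3 or distal differentiation replicate 1 or 3. It was also lost with no filter (0.102) and with summed-read scaling (0.133).

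Best2 (ENSMUSG00000052819, mm39 chromosome 8, 85733831 to 85741160, minus strand), the bestrophin of goblet cells, was close to the limit of detection. Summed over the 3 libraries of a group, control organoids gave 3 reads in proximal, 30 in mid and 17 in distal cultures, and differentiation organoids gave 0, 78 and 114. In distal differentiation organoids the libraries stood at 2.37, 1.36 and 0.424 FPKM, against 0, 0 and 0.429 in distal control, so 1 library of each medium lay at nearly the same value. Differentiation medium was higher there by 0.996 on the log2 scale (SE 0.266, adjusted p = 0.00428 in limma). Best2 passed the filter only through differentiation libraries, so this p is conditioned on where the gene is high, and with no filter it was 0.00927. In the same groups the ratio of reads scaled to library size was 9.89 with a 95% interval of 5.91 to 17.6, which covers counting error only. In mid organoids the values were 0.192, 0.0230 and 0.462 in control and 0.858, 0.255 and 1.09 in differentiation medium, and the difference of 0.48 was not called (adjusted p = 0.125). Without mid differentiation replicate 2 it was 0.70 (adjusted p = 0.0431).

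In differentiation medium Best2 was higher in distal than in proximal organoids by 1.17 on the log2 scale (adjusted p = 0.00368 in limma, 0.00789 with no filter) and in mid organoids by 0.76 (0.0421, and 0.0741 with no filter). The filter was passed through libraries of these higher groups, so the filtered p-values are conditioned on the difference, and the mid one does not hold with no filter. Against a floor of 3 reads over the proximal group, distal organoids had at least 44.4-fold and mid organoids at least 25.6-fold more. The mid call was lost in 7 of 15 fits that left out 1 library: each of the 3 proximal differentiation libraries (adjusted p = 0.0799, 0.0867 and 0.0895), proximal control replicate 2 (0.0531) or 3 (0.0526), mid control replicate 1 (0.0525) and mid differentiation replicate 1 (0.124). In the other fits that left out 1 library the gene either stayed called or no longer passed the filter. Markers of goblet cells, the cell type known for Best2, rose in all 3 regions (7 of 7 genes in each). Their summed FPKM in control libraries was 67.2 to 181 in proximal, 341 to 516 in mid and 147 to 256 in distal organoids. In differentiation libraries it was 1062 to 1719, 2258 to 3773 and 1809 to 2387, with no defining marker at 0. Their part in the Best2 values was not tested.

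Clcn2 (ENSMUSG00000022843, mm39 chromosome 16, 20521714 to 20536496, minus strand), the hyperpolarization-opened channel, rose in all 3 regions. Control libraries stood at 9.14, 8.66 and 9.69 FPKM in proximal, 9.63, 10.2 and 10.999 in mid organoids, and 8.10, 6.14 and 12.4 in distal organoids. In differentiation medium they stood at 28.9, 52.0 and 42.8, at 102.8, 98.2 and 106.5 and at 99.1, 73.6 and 66.9. No library of one medium reached the range of the other. The rise was 4.50-fold in proximal, 9.99-fold in mid and 9.003-fold in distal organoids, with log2 fold changes of 2.02 (SE 0.216, adjusted p = 3.72e-06), 3.20 (2.09e-08) and 3.06 (3.75e-08) in limma. Without proximal differentiation replicate 1 the proximal value was 2.25. In control medium the regions overlapped and none was called apart. In differentiation medium mid organoids had 2.49-fold (log2 1.33, adjusted p = 0.000272) and distal organoids 1.94-fold more Clcn2 (log2 0.96, adjusted p = 0.00349) than proximal ones. These were 1.103 (0.00127) and 0.73 (0.0177) on the log2 scale without proximal differentiation replicate 1.

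Ratios between members within a library do not depend on how libraries were scaled, and they have no test of their own. In control medium Clcn2 over Cftr was 0.544 ± 0.06003 in proximal, 1.69 ± 0.158 in mid and 2.84 ± 1.45 in distal libraries (SD, n = 3). In differentiation medium it was 8.85 ± 7.16, 53.5 ± 20.2 and 232 ± 189. Cftr had only 18, 39 and 192 reads in the distal differentiation libraries, so ratios over it rest on few reads there. This one ran from 37.4 to 415 in that group. The lowest differentiation value exceeded the highest control value in every region, at 2.90 against 0.594, 36.3 against 1.81 and 37.4 against 4.44. Slc12a2 over Cftr, the loading step over the exit channel, was 2.90 ± 0.182 in proximal, 18.1 ± 2.19 in mid and 40.6 ± 35.7 in distal control libraries. In differentiation medium it was 1.27 ± 0.343, 7.79 ± 1.42 and 36.9 ± 18.5, and the media overlapped in distal organoids. Clic5 over Clic4 went from 0.0565 ± 0.0315 to 2.19 ± 0.909 in proximal, from 0.129 ± 0.0521 to 3.03 ± 0.720 in mid and from 0.124 ± 0.0488 to 5.18 ± 2.37 in distal libraries, with no overlap between media.

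Clic1 (ENSMUSG00000007041, mm39 chromosome 17, 35268942 to 35277725, plus strand) was the most abundant of the 9 genes. Control libraries ran from 157 to 189 FPKM in proximal, 170 to 214 in mid and 128 to 231 in distal organoids, and differentiation libraries from 200 to 279, 257 to 306 and 235 to 330. The media did not overlap in any region. The log2 fold changes were 0.47 (SE 0.198, adjusted p = 0.0591), 0.49 (0.0401) and 0.64 (0.0109) in limma, so the rise was called in mid and distal organoids. The proximal difference was called without proximal differentiation replicate 1 (0.60, adjusted p = 0.0265), without distal control replicate 2 (0.0344) or 3 (0.0287) or distal differentiation replicate 1 (0.0452), with voom (0.0492) and when only the compared groups were fitted (0.0487). Scaled to the summed reads, the values were 0.15, 0.06 and 0.19 and none was called (adjusted p = 0.449, 0.752 and 0.319), so the rise rests on the scaling behind the FPKM. The mid call was also lost without mid control replicate 1 (0.138) or 2 (0.0692), without mid differentiation replicate 1 (0.0586), 2 (0.0562) or 3 (0.131), and with no filter (0.0866). The distal call was lost without distal control replicate 2 (0.0672), without distal differentiation replicate 1 (0.0583) and when only the compared groups were fitted (0.0824). Regions were not called apart in either medium.

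Clic4 (ENSMUSG00000037242, mm39 chromosome 4, 134941280 to 135000125, minus strand) fell in differentiation medium in every region. Clic4 control libraries stood at 21.5, 26.7 and 24.2 FPKM in proximal, 28.5, 34.5 and 37.8 in mid organoids, and 35.9, 30.3 and 38.5 in distal organoids. In differentiation medium they stood at 9.27, 7.07 and 8.38, at 15.0, 18.1 and 21.0 and at 10.6, 10.98 and 17.1. The media were apart in every region, with log2 fold changes of -1.45 (SE 0.175, adjusted p = 1.13e-05), -0.87 (0.000512) and -1.39 (8.90e-06) in limma. Without proximal differentiation replicate 1 the proximal value was -1.53. Across regions Clic4 was higher in mid (log2 1.04, adjusted p = 0.000387) and distal (log2 0.56, adjusted p = 0.0235) than in proximal differentiation organoids, or 1.11 and 0.64 without proximal differentiation replicate 1. The distal call was lost without proximal differentiation replicate 2 (0.0921) or 3 (0.0505), without distal differentiation replicate 3 (0.108), with summed-read scaling (0.124) and when only the compared groups were fitted (0.117). In control medium the differences of 0.51 for distal and 0.45 for mid were not called (adjusted p = 0.0806 and 0.101), although the ranges did not overlap. Without distal differentiation replicate 3 both were called (0.0330 and 0.0490).

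Clic5 (ENSMUSG00000023959, mm39 chromosome 17, 44445659 to 44591059, plus strand), the ezrin-binding member, had the largest log2 fold changes of FPKM + 1 between media of the 9 genes in all 3 regions. In distal organoids this rank depends on the setting, since the low gene Best2 reached 4.92 among the alternatives, against at most 3.88 for Clic5. Clic5 control libraries stood at 1.996, 1.12 and 0.840 FPKM in proximal, 5.37, 3.51 and 3.59 in mid organoids, and 6.15, 3.85 and 2.84 in distal organoids. In differentiation medium they stood at 11.9, 22.0 and 18.1, at 57.3, 43.9 and 59.5 and at 78.0, 60.8 and 45.4. The media were far apart in every region, by 13.1-fold, 12.9-fold and 14.3-fold at the means, with log2 fold changes of 2.97 (SE 0.272, adjusted p = 7.97e-07), 3.41 (1.10e-07) and 3.58 (7.85e-08) in limma. Without proximal differentiation replicate 1 the proximal value was 3.21. Proximal organoids had the least Clic5 in both media. Distal organoids were 3.24-fold higher in control (log2 1.17, adjusted p = 0.0106) and 3.54-fold higher in differentiation medium (log2 1.77, adjusted p = 0.000153), and mid organoids 3.15-fold (log2 1.16, adjusted p = 0.00998) and 3.09-fold (log2 1.60, adjusted p = 0.000396). The log2 differences in differentiation medium were 1.54 (distal) and 1.37 (mid) without proximal differentiation replicate 1. In control medium the distal call was lost without proximal control replicate 3 (0.0630), without distal control replicate 1 (0.0574) and when only the compared groups were fitted (0.0706). The mid call was lost without proximal control replicate 3 (0.0590) and without mid control replicate 1 (0.0564).

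Clic6 (ENSMUSG00000022949, mm39 chromosome 16, 92282624 to 92338131, plus strand) was near absent from proximal organoids and present in mid and distal ones. Proximal libraries held 2, 4 and 5 reads in control and 1, 0 and 0 in differentiation medium. Mid libraries stood at 22.2, 20.5 and 22.5 FPKM in control and 6.10, 5.96 and 7.39 in differentiation medium, and distal libraries at 25.1, 29.4 and 29.0 and at 14.9, 18.7 and 16.1. In control medium the distal libraries held 6432 reads and the proximal ones 11, a scaled ratio of 533 (95% counting interval 298 to 1069). In differentiation medium they held 2648 and 1, a ratio of 3097 (555 to 122377). For mid against proximal organoids the ratios were 417 (233 to 837) and 1192 (214 to 47123). All 4 differences were called (adjusted p = 3.64e-14, 1.66e-13, 9.24e-14 and 1.40e-11 in limma, in the order given). Clic6 passed the filter only through its 12 mid and distal libraries, so the filtered p-values against proximal organoids are conditioned on the difference. All 4 differences were also called in every alternative that could be fitted, including no filter. On the log2 scale the 2 in differentiation medium were 4.12 and 2.89, and 4.13 and 2.90 without proximal differentiation replicate 1.

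In mid and distal organoids Clic6 fell in differentiation medium, with log2 fold changes of -1.61 (SE 0.101, adjusted p = 1.06e-08 in limma) and -0.72 (adjusted p = 2.45e-05), or 3.36-fold and 1.68-fold. The media did not overlap in either region. Distal organoids had 2.55-fold more Clic6 than mid organoids in differentiation medium (log2 1.23, adjusted p = 1.00e-05), which had an adjusted p of 0.0601 when only the compared groups were fitted. In proximal organoids the 1 and 11 reads gave a ratio of 0.105 (95% counting interval 0.00243 to 0.719). The log2 difference there was -0.07 (adjusted p = 0.607), -0.53 with a pseudocount of 0.1 (0.00593) and -2.25 with voom (0.0143), so its size depends on the scale used.

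**Figure D3:**
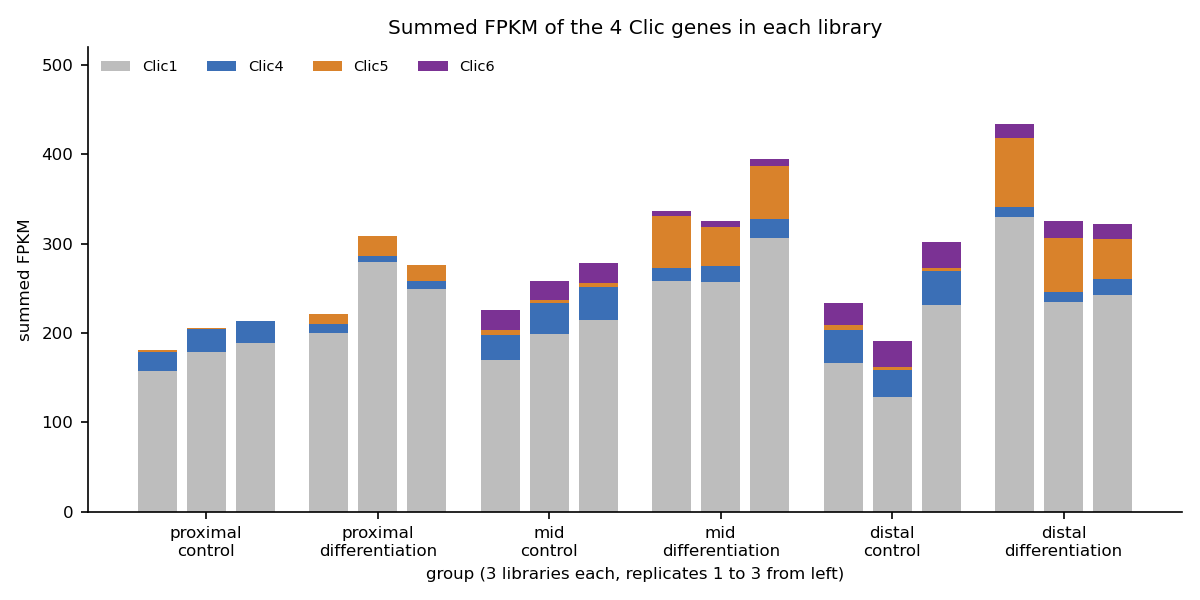
Summed FPKM of Clic1, Clic4, Clic5 and Clic6 (vertical axis) in each of the 18 libraries, grouped by region and medium, with 1 stacked bar per library. Clic1 makes up most of each bar, the Clic5 segment grows in differentiation medium, and the Clic6 segment is visible in mid and distal libraries.

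Added together in control medium, the 4 Clic genes reached 200.2 ± 17.2 FPKM in proximal, 254 ± 26.3 in mid and 242 ± 55.6 in distal libraries (SD, n = 3). In differentiation medium the sums were 269 ± 43.9, 352 ± 37.2 and 360 ± 63.5, and no test was run on them or on the shares. Clic1 held 71.6% to 90.5% of the sum by group mean. The share of Clic4 went from 12.1% ± 0.823 to 3.17% ± 0.954 in proximal, from 13.2% ± 0.516 to 5.11% ± 0.588 in mid and from 14.7% ± 1.66 to 3.71% ± 1.47 in distal libraries. The share of Clic5 went from 0.681% ± 0.374 to 6.35% ± 0.882, from 1.68% ± 0.607 to 15.2% ± 1.76 and from 1.86% ± 0.853 to 16.9% ± 2.46. The shares of Clic4 and Clic5 did not overlap between media in any region.

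Between regions the counts over the 9 genes differed by medium. In control medium 4 of 9 were called between distal and proximal organoids, 3 higher and 1 lower, against 10.5% of all genes (5.57% higher and 4.98% lower). Between mid and proximal organoids 4 were called, 3 higher and 1 lower, against 13.3% (7.99% and 5.28%). In both cases Slc12a2, Clic5 and Clic6 were higher and Cftr lower than in proximal organoids. In differentiation medium 8 of 9 were called in distal organoids, 7 higher and 1 lower, against 29.9% of all genes (15.6% and 14.3%). In mid organoids 8 were called, 7 higher and 1 lower, against 29.4% (15.6% and 13.7%). All but Clic1 were called there, and the lower one was again Cftr. Best2 passed the filter only through libraries of the groups in which it is higher. The same holds for Clic6, in control medium too. Among the alternatives the lowest of the differentiation counts was 5 of 9 for distal organoids and 4 of 9 for mid organoids. The control counts went lower than these in fits that left out 1 library, with ranges given in the last section. Groups did not overlap in control medium for 5 of 9 genes in distal (27.4% of all genes) and 5 in mid organoids (39.7%) against proximal ones. In differentiation medium they did not overlap for 7 (36.8% of all genes) and 8 (43.7%). Between distal and mid organoids 0 of 9 were called in control medium (0.326% of all genes) and 1, Clic6, in differentiation medium (0.69%). At an unadjusted p under 0.05 the control comparison held 1 gene, Clic6 (log2 0.34, adjusted p = 0.317 in limma), and voom on the recovered reads also called 0. The comparisons against proximal organoids share their proximal libraries.

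Whether the medium response itself differed between regions was tested with interaction terms. Between distal and proximal organoids 3 of 9 genes were called (8.24% of all genes): Ano1 with a difference of 1.51 (SE 0.438, adjusted p = 0.0451 in limma), Clcn2 with 1.05 (SE 0.306, adjusted p = 0.0471) and Clic6 with -0.65 (SE 0.143, adjusted p = 0.0110). Ano1 thus fell more in proximal organoids and Clcn2 rose less there. Both calls sit at the threshold. Ano1 kept its call in 4 of 18 fits that left out 1 library (without proximal control replicate 1, proximal differentiation replicate 1, distal control replicate 3 or distal differentiation replicate 1), with an adjusted p of up to 0.113 in the others, and it was lost with a pseudocount of 0.1 (0.0523), no filter (0.0976), summed-read scaling (0.0995), voom (0.0549) and only the compared groups (0.117). Clcn2 kept it in 3 of 18 (without proximal differentiation replicate 2, distal control replicate 3 or distal differentiation replicate 3), with up to 0.110 in the others, and was lost with a pseudocount of 0.1 (0.0603), no filter (0.0953), voom (0.0607) and only the compared groups (0.138). Without proximal differentiation replicate 1, which stands apart, the Clcn2 difference was 0.82 (adjusted p = 0.0916), the Ano1 difference 1.76 (0.0256) and the Clic6 difference -0.64 (0.0181). Best2 had a difference of 1.03 (adjusted p = 0.112, and 0.189 with no filter), which was 1.35 (0.0164) without distal differentiation replicate 3. Best2 passed the filter only through differentiation libraries, so its filtered p-values are conditioned on where the gene is high. The differences for Cftr (-0.04), Slc12a2 (0.03), Clic4 (0.05), Clic1 (0.17) and Clic5 (0.60) were not called. Over the alternatives the Cftr difference ran from -1.09 to 0.30 and the Clic5 difference from 0.09 to 0.85, with no call in any.

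For Clic6 the interaction against proximal organoids is set by the scale, since proximal libraries held 11 and 1 reads in all. On log2(FPKM + 1) it was negative, with a pseudocount of 0.1 it was -0.22 (adjusted p = 0.571), and with voom it turned to 1.51 (adjusted p = 0.251). A moderated F test of any difference between the 3 regions called 2 of 9 genes (9.59% of all genes), Clcn2 (adjusted p = 0.0345 in limma) and Clic6 (2.43e-05). With voom the Clic6 value was 0.413, and with no filter the Clcn2 value was 0.0732. Clcn2 was lost in 11 of 18 fits that left out 1 library (adjusted p up to 0.0983, without proximal control replicate 3) and stayed in the 7 without mid control replicate 3, proximal differentiation replicate 2, distal control replicate 2 or 3, or distal differentiation replicate 1, 2 or 3.

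A pair of interaction terms with mid organoids was added after these values were seen. Between mid and proximal organoids 2 of 9 genes were called (12% of all genes), Clcn2 with 1.18 (SE 0.306, adjusted p = 0.0208 in limma) and Clic6 with -1.54 (adjusted p = 8.48e-06), which voom turned to 0.51 (adjusted p = 0.719). The Clcn2 difference had an adjusted p of 0.0520 without proximal control replicate 3, and was 0.955 (0.0400) without proximal differentiation replicate 1. Between distal and mid organoids, where Clic6 is well expressed in both, 1 of 9 was called (0.031% of all genes), Clic6 with 0.89 (SE 0.143, adjusted p = 0.0487). Its fall between media was thus larger in mid organoids, but the call stayed in only 2 of 18 fits that left out 1 library, those without mid differentiation replicate 3 or distal differentiation replicate 1 (adjusted p up to 0.191 in the others). It was also lost with a filter of FPKM 5 (0.0820), a pseudocount of 0.1 (0.731), summed-read scaling (0.247), voom (0.129) and only the compared groups (0.323). Ano1 had a difference of 1.22 between mid and proximal organoids (adjusted p = 0.0837), and 1.46 (0.0444) without proximal differentiation replicate 1.

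Other genes of the same pathways, listed by role, changed in both directions between media. Of all genes tested, 27.6% (proximal), 31.5% (mid) and 31.6% (distal) were called higher, and 26.2%, 32% and 31.3% lower, and each list's counts are read against these shares. With summed-read scaling, which moved that split towards lower genes, the counts of each list are given again in the order proximal, mid, distal. Of 8 basolateral drivers (potassium channels, sodium pump subunits and bicarbonate transporters), 3 rose in every region while 4 fell in proximal, 5 in mid and 4 in distal organoids, with median log2 fold changes of -0.11, -0.88 and -0.52 against -0.01, 0 and 0.00 for all genes tested. With summed-read scaling 3, 3 and 2 were higher, and 4, 5 and 4 lower. The potassium channel Kcnn4, opened by calcium, fell from 23.0 ± 2.66 to 2.45 ± 1.502 FPKM in proximal, from 16.9 ± 1.58 to 1.74 ± 0.192 in mid and from 15.2 ± 1.96 to 2.16 ± 0.431 in distal organoids (adjusted p = 1.22e-07, 9.95e-08 and 4.38e-07 in limma). Kcne3, the partner subunit of the KCNQ1 potassium channel, fell from 22.1 ± 12.3 to 4.37 ± 5.72, from 19.9 ± 5.01 to 0.777 ± 0.304 and from 16.1 ± 5.05 to 0.611 ± 0.230. Atp1b1, a beta subunit of the sodium pump, rose from 89.0 ± 34.2 to 373 ± 70.7, from 214 ± 39.6 to 812 ± 59.7 and from 222 ± 63.2 to 871 ± 335.

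Among the WNK and SPAK kinases, which switch Slc12a2 on by phosphorylation, 6 of 8 genes passed the filter. Of these 3 were higher and 2 lower in proximal, and 2 higher and 2 lower in mid and in distal organoids. With summed-read scaling 2, 1 and 1 were higher, and 2, 4 and 3 lower. Stk39, which encodes SPAK, fell (log2 -0.71, -1.10 and -1.09, adjusted p = 0.00110, 1.61e-05 and 2.05e-05 in limma). Cab39, which binds and activates SPAK, rose by 0.85, 1.14 and 1.14, and the kinase gene Wnk4 by 0.51, 0.48 and 0.67, although Wnk4 was called in no region with summed-read scaling (adjusted p = 0.385, 0.700 and 0.312). Of 8 other SLC12 cotransporters 5 passed, with 2 higher in proximal, 2 higher in mid, and 3 higher and 1 lower in distal organoids. With summed-read scaling 2, 2 and 2 were higher, and 0, 0 and 2 lower. The potassium-chloride cotransporter gene Slc12a7 rose in all 3 regions (log2 1.07, 1.22 and 1.33), and Slc12a8 in distal organoids (0.67, adjusted p = 0.0217, and 0.117 with summed-read scaling).

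Of 11 genes for receptors that start secretion 6 passed, with 3 higher and 1 lower in proximal, and 4 higher and 1 lower in mid and in distal organoids. With summed-read scaling 3, 3 and 4 were higher, and 2, 1 and 2 lower. Gucy2c, the guanylin receptor, rose by 2.36, 1.73 and 1.76 on the log2 scale (adjusted p = 2.71e-05, 0.000207 and 0.000190 in limma). The nucleotide receptor P2ry6 fell (log2 -0.98, -2.11 and -1.56). P2ry2, another nucleotide receptor, stood at 13.3 ± 1.32 and 12.9 ± 0.350 FPKM in the 2 media in proximal organoids (log2 -0.04, adjusted p = 0.728, and -0.34 with 0.00980 on summed-read scaling) and rose from 6.15 ± 0.626 to 22.5 ± 1.47 in mid and from 8.12 ± 0.476 to 19.4 ± 0.716 in distal organoids.

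Of 18 effectors of cyclic nucleotides and calcium 15 passed. In proximal organoids 7 rose and 3 fell, in mid organoids 7 rose and 2 fell, and in distal organoids 9 rose and 3 fell. With summed-read scaling 16 passed, of which 6, 4 and 5 were higher, and 4, 3 and 5 lower. The G protein gene Gna11 rose by 2.42, 1.95 and 1.97 on the log2 scale and its effector Plcb3, a phospholipase C, by 1.26, 1.06 and 1.38, while Abcc4, which exports cyclic nucleotides, fell (log2 -0.57, -0.90 and -1.14). Of 16 scaffolds and trafficking factors of CFTR, 15 passed. In proximal organoids 8 rose and 2 fell, in mid organoids 9 rose and 3 fell, and in distal organoids 10 rose and 3 fell. With summed-read scaling 7, 5 and 7 were higher, and 5, 3 and 4 lower. Slc9a3r1 (NHERF1), which anchors CFTR and other apical proteins to ezrin, rose from 132 ± 4.86 to 505 ± 115 FPKM in proximal, from 102.5 ± 7.04 to 601 ± 71.8 in mid and from 98.4 ± 10.6 to 605 ± 168 in distal organoids. Pdzd3 rose from 0.150 ± 0.200 to 6.11 ± 1.504, from 0.485 ± 0.0855 to 14.6 ± 2.07 and from 0.269 ± 0.0592 to 14.8 ± 5.42. Slc9a3r2 (NHERF2) fell (log2 -1.22, -0.85 and -0.98).

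Of 28 other chloride channel genes 17 passed. In proximal organoids 5 rose and 4 fell, in mid organoids 7 rose and 6 fell, and in distal organoids 6 rose and 6 fell. With summed-read scaling 4, 3 and 4 were higher, and 6, 8 and 8 lower. The anoctamin genes Ano10 (log2 1.09, 1.72 and 1.85) and Ano9 (1.42, 1.02 and 1.14) rose in all 3 regions. Lrrc8c, a subunit of the volume-regulated anion channel, fell (log2 -1.65, -1.37 and -1.18).

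**Figure D4:**
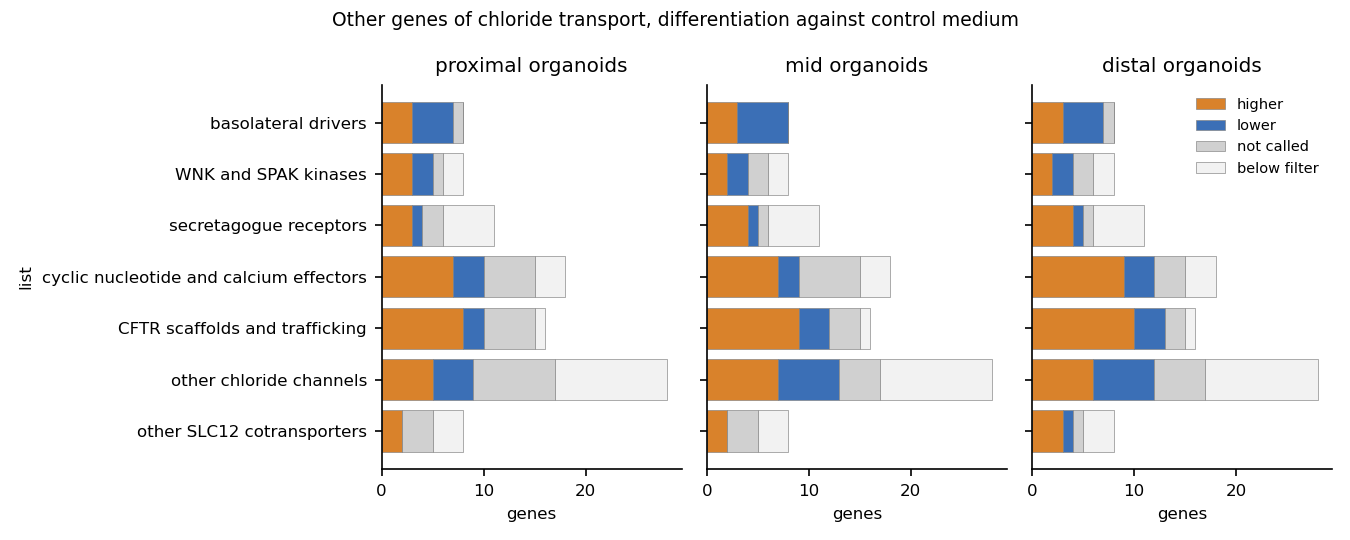
Number of genes (horizontal axis) in each of the 7 lists of other chloride transport genes (vertical axis) that were higher, lower or not called in differentiation medium, or below the filter, in proximal, mid and distal organoids from left to right. Scaffolds of CFTR, among other lists, hold more higher than lower genes in each region, and basolateral drivers hold slightly more lower ones. Of all genes tested, 27.6%, 31.5% and 31.6% were called higher in these regions, and 26.2%, 32% and 31.3% lower.

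The change of medium also moved markers of cell state. Crypt stem cell markers fell (4 of 4 in each region), with summed FPKM of 26.1 to 37.8 over the 9 control libraries and 0.132 to 3.95 over the 9 differentiation libraries, and Lgr5 was at 0 in mid differentiation libraries. Markers of cycling cells summed to 50.4 to 109 in control and 40.4 to 86.1 in differentiation libraries of proximal organoids, where the media overlapped. The sums in the same order were 141 to 181 and 33.4 to 37.6 in mid organoids, and 105 to 170 and 27.8 to 63.7 in distal organoids. Of these 5 markers 3, 5 and 4 were lower in proximal, mid and distal organoids. Colonocyte markers rose (4, 5 and 5 of 5), with sums of 294 to 2156 in control and 13955 to 24569 in differentiation libraries. Enteroendocrine markers rose (3 of 3 tested in each region), with sums of 0.869 to 26.6 in control and 11.9 to 111 in differentiation libraries. Their part in the changes of the 9 genes was not tested.

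**Figure D5:**
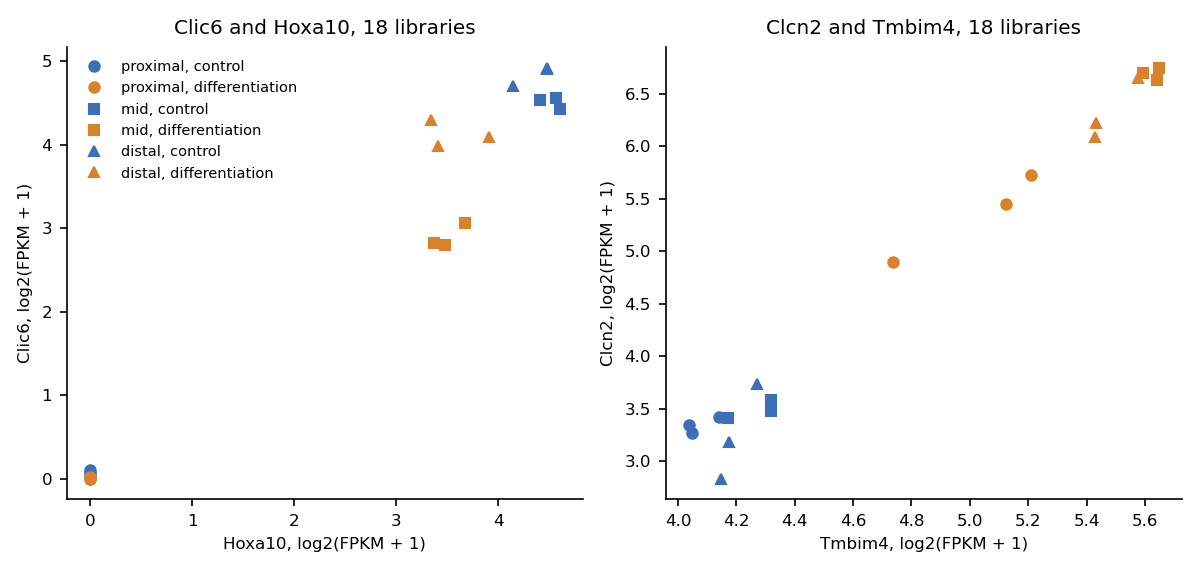
Left, Clic6 against Hoxa10, and right, Clcn2 against Tmbim4, as log2(FPKM + 1) with 1 point per library, colour for medium and shape for region (18 libraries). Hoxa10 is at 0 in the 6 proximal libraries, where Clic6 is at or near 0, and Tmbim4 and Clcn2 are both higher in the differentiation libraries.

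For each gene the most similar protein-coding genes were named by Pearson correlation of log2(FPKM + 1) over the 18 libraries, taken from the 8068 whose mean FPKM reached 5 in some group. These are descriptions over libraries that share region and medium, and they have no p. Among the genes most similar to Clic5 were Rmdn3 (0.994) and Slc39a5 (0.990). Clcn2 was closest to Tmbim4 (0.992), then Endod1 and Chmp1a. Clic6 was closest to the posterior homeobox gene Hoxa10 (0.979), which was at 0 in proximal organoids and at 22.1 (mid) and 19.7 (distal) FPKM in control and 10.4 and 10.9 in differentiation medium, then Vsig1 and Fam174b. Clic1 was closest to Cap1 (0.978), Slc12a2 to Lims1 (0.976), Clic4 to Ets2 (0.970), Cftr to Npnt (0.942), Best2 to Sec23ip (0.926) and Ano1 to Rasa1 (0.871). The next in order were Prdx5 and Rab11a for Clic1, Ddx20 for Slc12a2, Nr4a1 and Riok2 for Clic4, Nkain1 and Hdac7 for Cftr, Ada and Neu3 for Best2, and Plcd3 and Ephb6 for Ano1. Among the 9 genes themselves, the highest correlations were Clcn2 with Clic5 (0.952) and Slc12a2 with Clic4 (0.938), and the lowest was Slc12a2 with Clcn2 (-0.824).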

How the data were processed

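The deposited table gives FPKM, and the length of each gene, per the file headers. Alignment was with HISAT2 2.0.5 and counting with featureCounts 1.5.0-p3, per the submitters' processing notes, which name build mm39. Whether counting used strand is not stated there. FPKM times gene length gave whole reads for 100% of the values within a tolerance of 0.001, so reads could be recovered. The 6 columns of group means were not used, and 0 columns of values stayed without a sample.

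Differences were fitted on log2(FPKM + 1) of the deposited values, a scale that understates changes of low genes. The model in limma 3.58.1 (R 4.3.3) had 6 group means over 18 libraries, with a trended prior and two-sided tests. Tests covered 12896 genes (FPKM 1 or more in 3 or more libraries), with Benjamini-Hochberg adjustment in each comparison and a threshold of 0.05. SE is of the fit, SD is over 3 libraries. Count intervals are 95% and exact for 2 Poisson counts, and the floor is 3 reads over a group. The script was tested on simulated data. Tables and figures used Python 3.11.15, pandas 2.3.3, numpy 2.4.6, scipy 1.17.1 and matplotlib 3.10.9.

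The members, the 7 pathway and 14 marker lists and the tests were chosen with earlier results of these data known. Named genes are the 9 members, the 3 genes most correlated with each, and up to 3 genes a list with the largest mean medium response among those called. Some genes that this rule names are not reported here. Alternatives were a pseudocount of 0.1, no filter, a filter of FPKM 5, scaling to summed reads, voom on recovered reads, a fit of only the compared groups, a replicate block, and leaving out each library. Same-numbered libraries deviated together (every correlation over 0.1) in distal organoids between media (0.118 to 0.223) and between distal and mid control organoids (0.149 to 0.542), and not in the other 7 comparisons. In those 2 the block changed no call. Promoter sequences are RefSeq's on GRCm38.p6, another build than the table's, and gene positions are the table's own on mm39. List counts with summed-read scaling and ratios of means without 1 library were added after the data were seen.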

Additional observations from a re-analysis of the deposited data

Results flagged for a closer look

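Each of the following is a difference between regions in the response to differentiation medium, past the threshold of its own test in limma. Between distal and proximal organoids the difference (log2) was 1.51 for Ano1, 1.05 for Clcn2 and -0.65 for Clic6. Between mid and proximal organoids, a comparison added after the data were seen, it was 1.18 for Clcn2 and -1.54 for Clic6. Between distal and mid organoids, also added, it was 0.89 for Clic6. The F test over the 3 regions gave adjusted p-values of 0.0345 for Clcn2 and 2.43e-05 for Clic6. The Clic6 values against proximal organoids rest on 11 and 1 proximal reads and turned sign with voom. Among the alternatives, the call between distal and proximal organoids was lost in 19 of 25 for Ano1 and 20 of 25 for Clcn2. Between mid and proximal organoids the Clcn2 call was lost in 1 of 25. Between distal and mid organoids the Clic6 call was lost in 22 of 25. In the F test Clcn2 was lost in 12 of 24, and Clic6 had an adjusted p of 0.413 with voom.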

How the results depend on the processing

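Over the 117 tests of single genes, leaving out 1 library gave 2067 values, of which 1879 kept direction and side of the threshold, 113 lost a call, 16 gained one and 59 changed sign with no call on either side. The other settings gave 784, of which 725 were unchanged in that sense, 42 lost a call, 7 gained one, 8 changed sign without a call, and 2 turned a called value: Clic6 with voom, 1.51 between distal and proximal and 0.51 between mid and proximal medium responses. Counts of the 9 genes moved as follows. When only the compared groups were fitted, distal against proximal differentiation organoids held 5, distal against mid differentiation organoids 0, and the medium response between distal and proximal organoids 1. Mid against proximal differentiation organoids held 5 with no filter and 5 with summed-read scaling. The medium response between distal and proximal organoids held 0 with a pseudocount of 0.1, 1 with no filter and 0 with voom, that of mid against proximal 1 with voom, and the F test 1 with no filter and 1 with voom. The response between distal and mid organoids held 0 under 6 settings: the pseudocount of 0.1, summed-read scaling, voom, the filter of FPKM 5, only the compared groups and the replicate block. Leaving out 1 library gave 2 to 5 (distal against proximal control), 1 to 5 (mid against proximal control), 4 to 8 (mid against proximal differentiation), 1 to 3 (medium response, distal against proximal), 1 to 3 (mid against proximal), 0 to 1 (distal against mid) and 1 to 3 (F test). The cause of these changes was not tested. The replicate block, whose numbers the labels do not explain, left 113 of 117 tests as they were and changed 4: Clcn2 between distal and proximal responses was lost (adjusted p = 0.0543), Clic6 between distal and mid was lost (0.0758), and Clic4 between distal and proximal control (0.0406) and Ano1 in the F test (0.0492) were gained. Between media voom called 7041 genes in proximal, 8241 in mid and 8013 in distal organoids, where limma on log2 values called 6938, 8187 and 8110. Depth limits Best2 and proximal Clic6.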
